A study of Glycine max with 36 samples.

Results

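Small RNA of a soybean (Glycine max) leaf was set against small RNA of green seedling cotyledons, using 3 of the 36 libraries of the series. The leaf library came from a seedling of 10 days. The cotyledon libraries were of stage 6, when the cotyledon is mostly green and has straightened, and of stage 7, when it stands above the soil, is fully green and the unifoliate leaf is out. All 3 came from cultivar Williams, which has a yellow seed coat with a black hilum and the genotype i-i R T, and from plants raised in a greenhouse under standard conditions. The series as a whole asked in which tissues small RNAs of chalcone synthase genes occur. Sense and antisense total hits were summed for the transcript that the deposited table marks as the lowest splice form of each gene. Of 52872 genes, 34295 had a hit in at least 1 of the 3 libraries. Genes entered the comparison when the mean of the leaf level and the mean cotyledon level reached 1 CPM, which left 7443 measured genes. CPM means hits per 1000000 gene hits after scaling with TMM factors over the 3 libraries.

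A seedling leaf is built by the shoot meristem after germination, whereas the cotyledon is an embryonic organ that stored protein and oil in the seed and turns green as it empties. Plant small RNAs are mostly microRNAs, which pair with messenger RNAs, and small interfering RNAs, which are cut from double-stranded RNA and can come from both strands of a gene. A read of a microRNA that aligns to its target transcript falls on the antisense strand, while pieces of the messenger RNA itself fall on the sense strand. Some targets, among them immune receptor genes in legumes, also become sources of secondary small interfering RNAs after they are cut. Hits of all read lengths are pooled in the table, so these kinds of RNA enter 1 count, and no value here is a messenger RNA level.

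The leaf library held 26030659 gene hits on 24438 genes, the stage 6 library 29727252 on 27457 genes and the stage 7 library 35812799 on 28365 genes. A floor of 3 hits per library corresponded to 0.140 CPM in leaf, 0.103 CPM in stage 6 and 0.0673 CPM in stage 7. The 20 most abundant genes took 87.1% of the hits in leaf, against 77.5% in stage 6 and 72.6% in stage 7, and genes with no description took 91.6% in leaf, 87.0% in stage 6 and 84.4% in stage 7. Sense hits made up 28.6% of gene hits in leaf, 40.9% in stage 6 and 42.6% in stage 7. Over all genes that have a description, leaf had the highest share, with 38.9% sense in leaf, 30.7% in stage 6 and 31.8% in stage 7. The labels name 2 library kits and 2 sequencers for the series as a whole and tie none of them to a single library, so organ and kit cannot be told apart.

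With 1 leaf library against 2 cotyledon libraries of different stages, no test of the tissue was made. A gene is described by the fold between leaf and the nearer cotyledon library, with any library under 3 hits set to the floor, and is called when that fold is at least 4. A value called a ratio makes the same comparison from the counts as they are, without the floor. Values in brackets after a fold or ratio are 95% intervals of the ratio of 2 counts, with no floor, and cover counting error only. Hits on a messenger RNA in a whole organ also depend on its makeup, and fewer cells of a type and less RNA per cell cannot be told apart. Many genes share reads: the 7443 measured genes form 5533 groups whose counts lie within 5% of each other in all 3 libraries, so paralogs with near-equal counts are not separate observations.

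In leaf, 1528 genes (20.5% of those measured) were at least 4-fold above both cotyledon libraries and 1576 (21.2%) were at least 4-fold below both. Stage 7 was at least 4-fold above stage 6 for 71 genes (0.954%), and stage 6 was at least 4-fold above stage 7 for 30 (0.403%). Differences of that size were thus far more frequent between leaf and cotyledons than between the cotyledon stages. Counted as groups of near-equal counts, 1220 groups were above and 1164 below. A fold of at least 16 was reached by 396 genes above and 537 below, and a fold of at least 64 by 46 above and 81 below. The called genes were mostly modest sources of small RNA. The genes above had a median of 5.62 CPM in leaf, 0.516 CPM in stage 6 and 0.583 CPM in stage 7, and the genes below had 0.515 CPM in leaf, 6.70 CPM in stage 6 and 6.45 CPM in stage 7. Both cotyledon libraries were at 0 for 49 of the genes above.

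The 4-fold limit falls in a continuous range of values. Glyma.07G058400 lay just inside it above, with 161 hits in leaf, 52 in stage 6 and 84 in stage 7, and Glyma.14G176500 just outside, with 787 hits in leaf, 216 in stage 6 and 411 in stage 7. Glyma.01G121200 lay just inside it below, with 55 hits in leaf, 300 in stage 6 and 588 in stage 7, and Glyma.08G203200 just outside, at 0.983 CPM in leaf, 4.06 CPM in stage 6 and 3.92 CPM in stage 7. Scaling moves the balance between the directions. The median log2 difference of leaf and the mean cotyledon level over the measured genes was -0.11, and it was -0.55 without TMM factors, -0.62 on RPM over all reads and -0.03 with DESeq2 size factors. Without TMM factors 1028 genes were above and 1931 below, and on RPM over all reads 1118 were above and 2198 below. The quasi-likelihood test of edgeR takes its spread from the difference of the cotyledon stages and assumes that the lone leaf library varies like them. Its calls, made at an adjusted p under 0.05, rest on the same counts as the fold rule and are no separate support for it. The p-values of edgeR measure only the spread between stage 6 and stage 7, not between plants.

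**Figure D1:**
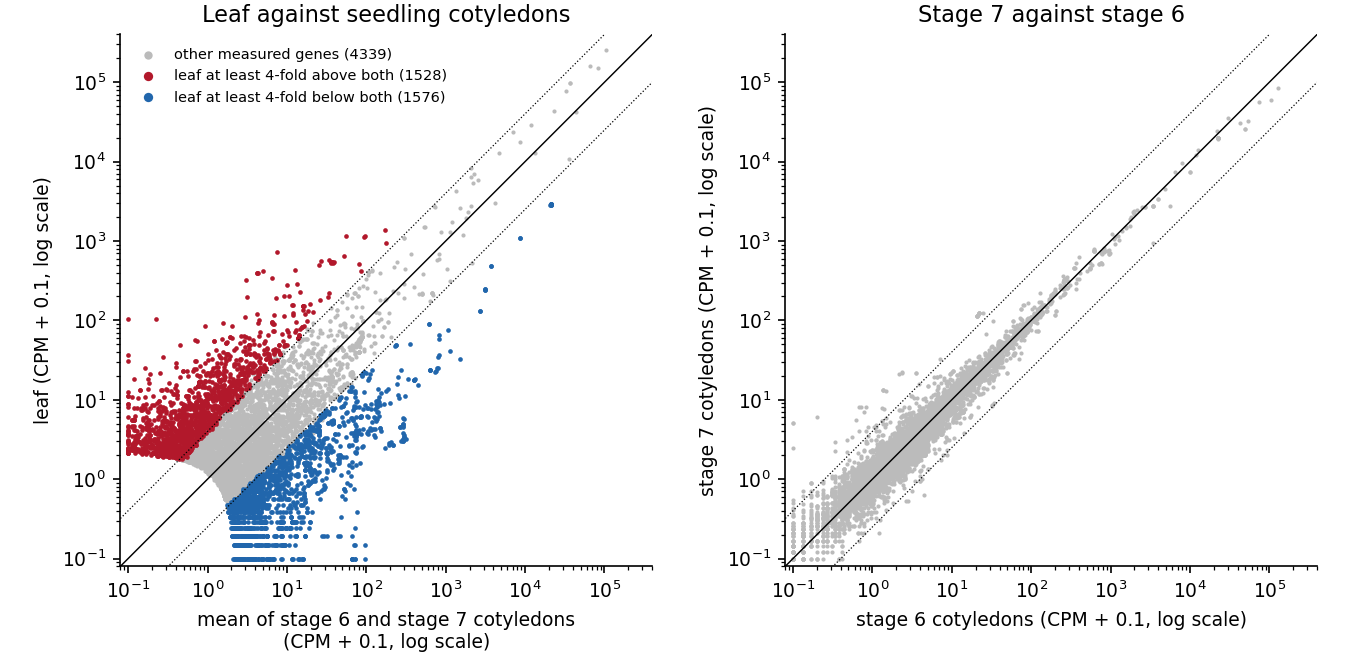
Left, level of each of the 7443 measured genes in leaf against the mean of stage 6 and stage 7 cotyledons; right, stage 7 against stage 6 (CPM + 0.1, log axes). Solid lines mark equality and dotted lines a 4-fold difference; coloured genes are the 1528 above and 1576 below both cotyledon libraries, whereas in the right panel few genes lie beyond the dotted lines (71 above and 30 below).

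The genes furthest above the cotyledons mostly had hits on a single strand in leaf and almost none in either cotyledon library. Glyma.04G036420, matched to Arabidopsis emb1427, a Spc97/Spc98 protein of the gamma-tubulin complex that starts microtubules, had 2209 hits in leaf, all sense, and 0 in both cotyledon libraries, which is at least 1003-fold higher. Its paralog Glyma.06G036500 had 2213 hits in leaf, 6 in stage 6 and 2 in stage 7, a fold of 502 (230.4 to 1369.9). Whether these paralogs share leaf reads was not tested. Glyma.08G243600, matched to CYP716A1 of a cytochrome P450 family that oxidises triterpenes, had 533 antisense hits in leaf, 1 hit in stage 6 and 4 in stage 7, a fold of 242 at the floor and a ratio of 278 (108 to 1025). All 3 were far above both cotyledon stages, where they had next to no hits.

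Further genes of the same kind were the transcription factor gene bZIP61 (Glyma.12G227700), with 278 hits in leaf, 1 in stage 6 and 2 in stage 7, and a protein phosphatase 2C gene (Glyma.18G057500), with 348 hits in leaf, 1 in stage 6 and 6 in stage 7. An O-fucosyltransferase gene (Glyma.04G018300) had 452 hits in leaf, 2 in stage 6 and 5 in stage 7. Hits on all 3 were sense only in leaf. Of the 12 largest folds above, 5 belonged to genes with no description, and for Glyma.11G132802 and Glyma.12G057201, at 779 and 665 antisense hits in leaf, both cotyledon libraries were at 0. Among all 1528 genes above 181 had no description, and among the 7443 measured genes 864 had none.

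Other genes reached higher levels in leaf with a lower fold, and these were chosen after their values were seen. Glyma.20G247850, which resembles the pollen protein Ole e I, had 325 CPM in leaf, 2.54 in stage 6 and 3.39 in stage 7, all sense, a fold of 96.1 (81.8 to 113.7). IDD2 (Glyma.03G211700), a zinc finger transcription factor of the indeterminate-domain family, had 734 CPM in leaf, 5.36 in stage 6 and 9.28 in stage 7, all antisense, a fold of 79.1 (71.7 to 87.4). So a gene with sense hits alone and one with antisense hits alone both lay far above the cotyledon range.

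Gene families were taken from 21 lists built from words in the deposited descriptions, and each list is described by how many of its measured members passed the 4-fold rule in each direction, against 20.5% above and 21.2% below over all measured genes, and by its median log2 fold to the nearer cotyledon library, which was 0 over all measured genes. The shares differed widely between lists: SPL, MYB33-like and NBS-LRR genes were mostly below in leaf, and NF-Y, AP2/ERF and GRAS genes were more often above than below.

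**Figure D2:**
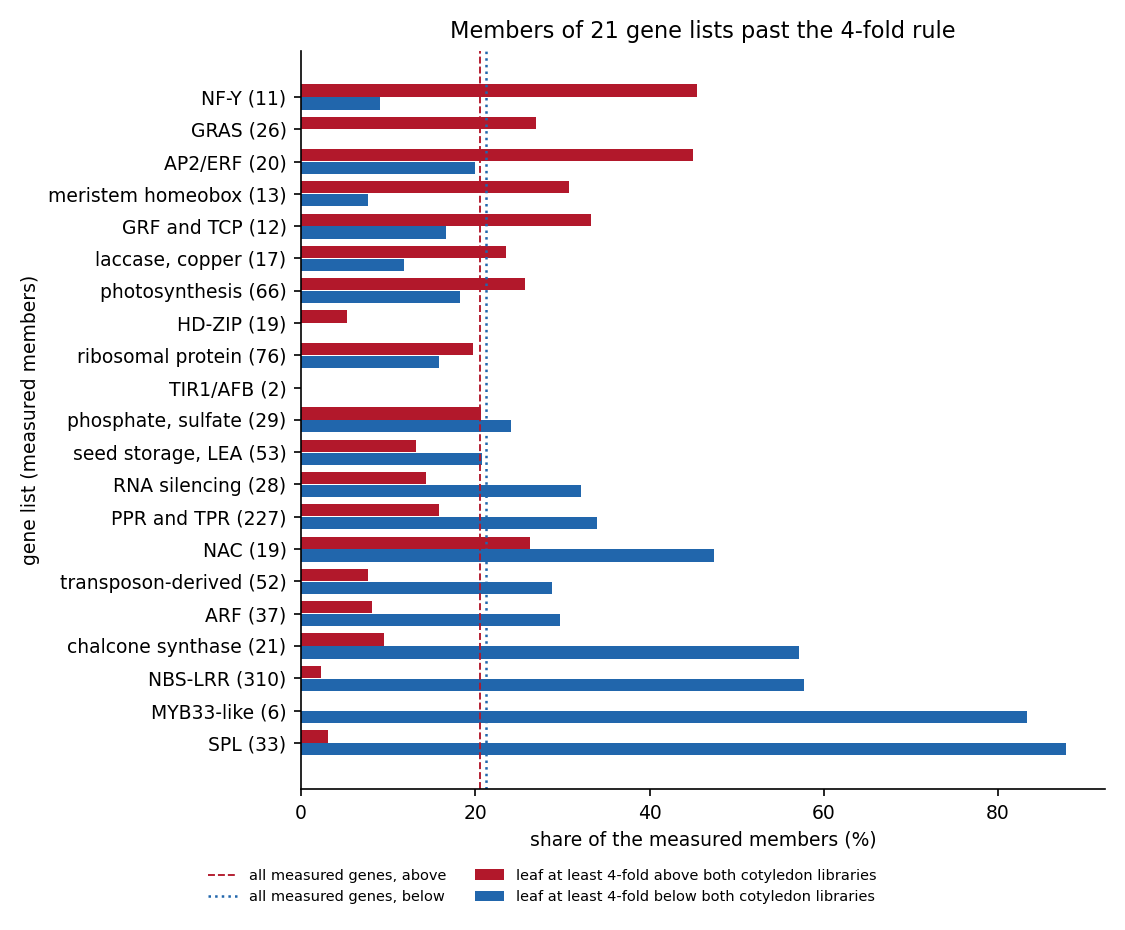
Share of the measured members of each of 21 gene lists (number measured in brackets) that were at least 4-fold above (red) or below (blue) both cotyledon libraries in leaf; the dashed and dotted lines give the shares over all measured genes, 20.5% and 21.2%. SPL genes, with 29 of 33 below, lie at the bottom and NF-Y genes, with 5 of 11 above, at the top.

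The SPL genes, transcription factors that time the change from juvenile to adult growth and are targets of miR156 in Arabidopsis, showed the lowest list median. Of 33 measured SPL genes 29 were below in leaf and 1 was above, with a median log2 fold of -6.24. SPL2 (Glyma.11G251500) had 3.09 CPM in leaf, 269 CPM in stage 6 and 328 CPM in stage 7, a fold of 87.0 (68.3 to 112.5). SPL9 (Glyma.09G113800) had 3.32 CPM in leaf, 270.2 CPM in stage 6 and 329 CPM in stage 7. SPL3 (Glyma.07G199000) had 2.57 CPM in leaf, 198 CPM in stage 6 and 233 CPM in stage 7. Leaf was far under both cotyledon stages for each, and hits in leaf were antisense only.

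These SPL values are not independent of each other. The 33 genes form 15 groups of near-equal counts, 12 of them below. Counts within 10% of those of Glyma.02G300950, at 62 to 74 hits in leaf, 7253 to 8297 in stage 6 and 13486 to 15534 in stage 7, were found in 19 genes, 15 with antisense hits and 4 with no description and sense hits. Summed over the measured SPL genes, hits came to 162 CPM in leaf, 6606 CPM in stage 6 and 7998 CPM in stage 7. The sense share of these sums was 19.2% in leaf, 0.467% in stage 6 and 0.400% in stage 7, while for the median member it was 0% in leaf, 0% in stage 6 and 0.0211% in stage 7. Without Glyma.10G009200 the leaf sum was 123 CPM with 25.4% sense. The single SPL gene above in leaf was an SPL12 match, Glyma.10G009200, with 39.4 CPM in leaf, 3.09 CPM in stage 6 and 3.05 CPM in stage 7, a fold of 12.7 (10.2 to 16.0). Another SPL12 match, Glyma.13G274900, had 2.62 CPM in leaf, 176 CPM in stage 6 and 209.9 CPM in stage 7, so genes with the same best match lay on opposite sides.

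MYB33-like genes, gibberellin-related MYB factors that are miR159 targets in Arabidopsis, were below in leaf for 5 of 6 measured, again with antisense hits. MYB33 (Glyma.04G125700) had 246 CPM in leaf, 3472 CPM in stage 6 and 2799 CPM in stage 7, a fold of 11.4 (11.1 to 11.7). A second match, Glyma.20G047600, had 48.4 CPM in leaf, 256 CPM in stage 6 and 217 CPM in stage 7, a fold of 4.47 (4.20 to 4.78). The sixth gene, Glyma.13G187500, did not differ in this way: it had 284 CPM in leaf, 309 CPM in stage 6 and 281 CPM in stage 7, which places leaf between the cotyledon libraries. The 6 genes form 3 groups of near-equal counts, of which 2 were below.

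Auxin response factors, which bind auxin-regulated promoters, were below in leaf for 11 of 37 and above for 3, with a median of -0.79. Subfamilies were chosen after their values were seen. ARF3 and ARF4 genes, targets of the TAS3 small RNAs in Arabidopsis, were below for 6 of 8, and ARF3 (Glyma.13G174000) had 6.13 CPM in leaf, 29.9 CPM in stage 6 and 28.8 CPM in stage 7, a fold of 4.70 (3.92 to 5.67). ARF2 genes were below for 2 of 5 and above for 0, and ARF6 and ARF8 genes below for 3 of 7 and above for 1. ARF2 (Glyma.06G164900) had 1.22 CPM in leaf, 16.5 CPM in stage 6 and 20.8 CPM in stage 7, a fold of 13.6 (9.14 to 20.97). The 12 measured ARF10, ARF16 and ARF17 genes, miR160 targets in Arabidopsis, all had antisense hits and none was called, with 387 to 489 hits in leaf, 1164 to 1202 in stage 6 and 1423 to 1478 in stage 7. On the higher side stood an ARF7 match with sense hits only, Glyma.01G002100, at 27.2 CPM in leaf, 2.78 CPM in stage 6 and 3.63 CPM in stage 7, a fold of 7.49 (6.28 to 8.97).

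Homeobox leucine zipper genes of class III, which set leaf polarity and are miR166 targets in Arabidopsis, were not called in either direction. All 14 measured had antisense hits, with a median log2 fold of -0.87, and the counts of single genes ran from 19 to 4782 hits in leaf, 107 to 18206 in stage 6 and 112 to 33868 in stage 7. In the wider list of 19 genes 1 was above and 0 below, although on RPM over all reads 4 of them were below. The 2 measured auxin receptor genes of the TIR1/AFB list were not called, with a median of -1.11.

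NAC transcription factors divided into 2 sets, with 5 of 19 above and 9 below. NAC2 matches, a gene also named NARS1 in Arabidopsis for its part in seed development, were above for 3 of 3. Glyma.12G221400 had 420.5 CPM in leaf, 3.37 CPM in stage 6 and 6.37 CPM in stage 7, a fold of 66.0 (58.7 to 74.6). Its paralog Glyma.13G280000 had 434 CPM in leaf, 11.4 CPM in stage 6 and 13.6 CPM in stage 7, a fold of 32.0 (29.4 to 34.8). With 8982 and 9278 hits in leaf, these paralogs may share leaf reads, which was not tested. Hits on both were nearly all antisense in leaf, at 0% and 0.0862% sense. In the cotyledons Glyma.13G280000 had 37.8% sense hits in stage 6 and 26.6% in stage 7.

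The membrane-bound NAC factors NTL9 and NAC062 lay on the other side, below for 5 of 5 measured, with a median of -4.22. NTL9 (Glyma.16G016600) had 3.04 CPM in leaf, 58.2 CPM in stage 6 and 83.7 CPM in stage 7, a fold of 19.1 (14.9 to 24.9). NAC062 (Glyma.07G047900) had 1.404 CPM in leaf, 29.6 CPM in stage 6 and 42.5 CPM in stage 7, a fold of 21.1 (14.7 to 31.4). The 5 genes together had 17 to 65 hits each in leaf, 346 to 1693 in stage 6 and 812 to 3732 in stage 7.

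Several families of growth and patterning had more members above than below. GRAS genes, some of them miR171 targets in Arabidopsis, were above for 7 of 26 and below for 0, with a median of 1.16. SHR (Glyma.11G047700), a GRAS factor that patterns root and vascular tissue, had 53.5 CPM in leaf, 1.41 CPM in stage 6 and 1.88 CPM in stage 7, a fold of 28.4 (22.7 to 35.9), with sense hits only in leaf. SCL8 (Glyma.10G232000) had 22.1 CPM in leaf, 0.894 CPM in stage 6 and 1.46 CPM in stage 7, also sense. SCR (Glyma.09G270000), the partner of SHR in Arabidopsis, had 26.0 CPM in leaf, 3.68 CPM in stage 6 and 3.63 CPM in stage 7, with 0.901% sense in leaf against 38.3% in stage 6 and 24.7% in stage 7. All of them lay above both cotyledon stages, on different strands.

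AP2/ERF genes were above for 9 of 20 and below for 4, with a median of 1.53; on RPM over all reads 6 were above and 5 below. SHN1 (Glyma.06G221800), an activator of wax and cuticle formation, had 150 hits in leaf, 3 in stage 6 and 2 in stage 7, all antisense, a fold of 68.1 (22.9 to 334). RAP2.1 (Glyma.17G240100) had 299 hits in leaf, 16 in stage 6 and 28 in stage 7, a fold of 22.3 (15.1 to 34.1). NF-Y genes, subunits of a CCAAT-binding complex, were above for 5 of 11 and below for 1. NF-YC9 (Glyma.10G155900) had 119 hits in leaf, 3 in stage 6 and 8 in stage 7, whereas NF-YA9 (Glyma.02G303800), the only measured gene of the A subunits that miR169 targets in Arabidopsis, had 2.76 CPM in leaf, 16.9 CPM in stage 6 and 9.69 CPM in stage 7 and was not called.

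Growth-regulating factors and TCP genes, targets of miR396 and miR319 in Arabidopsis, were above for 4 of 12 and below for 2, and for 2 each way without TMM factors. GRF5 matches went both ways. Glyma.17G050200 had 5.805 CPM in leaf, 0.722 CPM in stage 6 and 0.785 CPM in stage 7, all sense. Glyma.15G176500 had 1.87 CPM in leaf, 15.5 CPM in stage 6 and 15.6 CPM in stage 7, all antisense, a fold of 8.30 (6.00 to 11.8). The paralog above in leaf thus carried sense hits and the one below carried antisense hits.

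Genes of the shoot meristem list, meant as markers of meristem tissue, were above for 4 of 13 and below for 1, with summed levels over the whole list of 142 CPM in leaf, 67.6 CPM in stage 6 and 50.2 CPM in stage 7. In that list, 67 genes had no hit in leaf, 57 none in stage 6 and 49 none in stage 7. Scaled over all 36 libraries, the measured members summed to 266 CPM in leaf. In cultivar Clark they summed to 41.0 to 57.3 CPM in buds, 37.9 to 71.8 CPM in adult tips and 57.4 to 78.6 CPM in tips of 1 month. These members were chosen by their level in leaf and green cotyledons. The sums therefore cannot show whether hits on the list mark buds or shoot tips. The gene CLE20 alone held 64.4 of the 142 CPM in leaf. CLE20 (Glyma.02G270600), a gene of a small signalling peptide, had 64.4 CPM in leaf, 2.54 CPM in stage 6 and 3.05 CPM in stage 7, all antisense, a fold of 21.1 (17.7 to 25.4). WOX11 (Glyma.03G007600), a homeobox gene of root founder cells in Arabidopsis, had 182 hits in leaf, 4 in stage 6 and 3 in stage 7. WOX4 (Glyma.14G084600), which acts in the vascular cambium, had 3.51 CPM in leaf, 33.1 CPM in stage 6 and 17.5 CPM in stage 7, a fold of 4.97 (3.92 to 6.39), so members of the list lay on both sides.

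Photosynthesis genes, used as markers of green tissue, were above for 17 of 66 and below for 12, close to the shares over all genes, with a median of 0.04. Their hits summed over the list of 296 genes to 2574 CPM in leaf, 1021 CPM in stage 6 and 887 CPM in stage 7, and 140 of the genes had no hit in leaf and 126 none in stage 7. Kinds of subunit chosen after their values were seen lay on different sides. Photosystem reaction centre genes were above for 7 of 14 and below for 0, and the other 7 were not called. PsbA (Glyma.13G028200), the match to the D1 core protein of photosystem II, had 1366 CPM in leaf, 168.6 CPM in stage 6 and 175.2 CPM in stage 7, almost all sense, a fold of 7.80 (7.60 to 7.99). This single gene weighs on the leaf sum. The measured members summed to 2539 CPM in leaf, 995 CPM in stage 6 and 869 CPM in stage 7. Without PsbA they summed to 1173 CPM in leaf, 826 CPM in stage 6 and 694 CPM in stage 7. PsbI (Glyma.11G168010) had 508 CPM in leaf, 76.7 CPM in stage 6 and 84.1 CPM in stage 7, almost all antisense. PsbD (Glyma.01G153500) had 74.4 CPM in leaf, 6.53 CPM in stage 6 and 6.84 CPM in stage 7. These proteins are encoded in the plastid genome of plants, and whether the hits belong to plastid RNA or to the nuclear copies named here cannot be told apart.

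Nuclear genes of the light-harvesting antenna were above as well. All 7 measured LHCB1 and LHCB2 genes were above, with 55 to 421 hits in leaf, 9 to 82 in stage 6 and 10 to 86 in stage 7, all mainly sense. LHCB1.4 (Glyma.16G165200) had 16.8 CPM in leaf, 0.894 CPM in stage 6 and 1.17 CPM in stage 7, a fold of 14.4 (10.8 to 19.7). LHCB2.1 (Glyma.02G305400) had 10.8 CPM in leaf, 1.13 CPM in stage 6 and 0.942 CPM in stage 7, a fold of 9.49 (6.57 to 14.1).

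Extrinsic and small subunits of the same photosystem were on the other side. The 6 measured PsbP-1 and PSBR genes, which belong to the oxygen-evolving side of photosystem II, were all below, with 2 to 16 hits in leaf, 934 to 1686 in stage 6 and 1024 to 2145 in stage 7. PsbP-1 (Glyma.02G282500) had 2 hits in leaf, 1080 in stage 6 and 1164 in stage 7, all sense, a fold of 186 at the floor and a ratio of 279 (77.0 to 2305). PSBR (Glyma.08G173700) had 0.655 CPM in leaf, 58.0 CPM in stage 6 and 48.1 CPM in stage 7, a fold of 73.4 (43.6 to 134), and a second PSBR gene had the same counts. The antenna gene LHCA2 of photosystem I (Glyma.07G047600) had 3 hits in leaf, 112 in stage 6 and 108 in stage 7. A gene of the Rubisco small chain (Glyma.14G089500) had 0.187 CPM in leaf, 4.78 CPM in stage 6 and 3.59 CPM in stage 7. At least 90% of the hits in every library were sense for 5 of the 6 PsbP-1 and PSBR genes.

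Seed storage, oil body and late embryogenesis genes, meant as markers of reserve tissue, were above for 7 of 53 and below for 11. Their summed level over the whole list was 408 CPM in leaf, 342 CPM in stage 6 and 280 CPM in stage 7, and of the 542 genes 365 had no hit in leaf, 330 none in stage 6 and 324 none in stage 7. Lipoxygenase 1 genes, abundant seed proteins of soybean, were below for 6 of 23 and above for 0, and Glyma.08G189500 had 0 hits in leaf, 4.99 CPM in stage 6 and 2.67 CPM in stage 7. A late embryogenesis gene (Glyma.05G242600) had 64 hits in leaf, 4 in stage 6 and 5 in stage 7, a fold of 21.8 (8.11 to 82.4). The late embryogenesis genes were above for 2 of 10 and below for 4. A single gene weighs on the leaf sum, the late embryogenesis glycoprotein gene Glyma.16G031000, with 210.0 CPM in leaf, 50.4 CPM in stage 6 and 62.6 CPM in stage 7. The measured members summed to 365 CPM in leaf, 299 CPM in stage 6 and 246 CPM in stage 7, and without this gene to 155 CPM in leaf, 249 CPM in stage 6 and 183 CPM in stage 7, so that leaf was then the lowest.

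NBS-LRR genes, the intracellular immune receptors of plants, were the list with the most genes below in leaf: 179 of 310 measured were below and 7 above, with a median of -2.63 (of 279 groups of near-equal counts, 161 were below and 7 above). The TIR class was below for 99 genes and above for 2, with a median of -3.63. The other resistance genes were below for 80 and above for 5, with a median of -1.64. The TIR-NBS-LRR gene Glyma.12G163089 had 32.8 CPM in leaf, 1578 CPM in stage 6 and 1488 CPM in stage 7, a fold of 45.4 (42.1 to 48.98). Glyma.04G219632 had 41.4 CPM in leaf, 1146 CPM in stage 6 and 1112 CPM in stage 7, a fold of 26.9 (25.1 to 28.7). A match to RPM1 (Glyma.18G093400), an Arabidopsis receptor for Pseudomonas effectors, had 3 hits in leaf, 300 in stage 6 and 398 in stage 7, all antisense.

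Summed over the measured NBS-LRR genes, hits came to 2510 CPM in leaf, 13859 CPM in stage 6 and 14648 CPM in stage 7. The sum was 60.6% sense in leaf, 21.3% in stage 6 and 22.4% in stage 7. A single gene weighs on the leaf value: Glyma.12G218500 had 536 CPM in leaf, all sense, 38.4 CPM in stage 6 and 36.9 CPM in stage 7, and without it the leaf sum was 1975 CPM with 49.9% sense. For the median member the sense share was 38.7% in leaf, 44.1% in stage 6 and 43.5% in stage 7, so the strand difference of the sums was not that of the median gene.

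Genes of pentatricopeptide and tetratricopeptide repeat proteins were below for 77 of 227 and above for 36, with a median of -0.79. Those described as pentatricopeptide repeat proteins, RNA-binding proteins of plastids and mitochondria, were below for 27 of 100 and above for 20, with a median of 0.00, and the others for 50 and 16 of 127. Glyma.13G345000, a tetratricopeptide repeat gene, had 65.8 CPM in leaf, 971 CPM in stage 6 and 699 CPM in stage 7, a fold of 10.6 (10.1 to 11.2), with 44.3% sense hits in leaf against 0.789% in stage 6 and 1.05% in stage 7. RPF2 (Glyma.07G100300), which processes mitochondrial transcripts in Arabidopsis, had 0.983 CPM in leaf, 67.8 CPM in stage 6 and 61.3 CPM in stage 7. In the other direction Glyma.07G145700 had 85.8 CPM in leaf, 0.688 CPM in stage 6 and 0.964 CPM in stage 7, a fold of 89.0 (65.8 to 123).

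Genes of the silencing machinery were themselves sources of small RNA and were below for 9 of 28 and above for 4. Dicer-like genes were below for 2 of 5, Argonaute genes for 4 of 9 and SGS3 genes for 3 of 5, with 0 above in each. DCL2 (Glyma.09G025400), a dicer that makes small interfering RNAs, had 2 hits in leaf, 397 in stage 6 and 549 in stage 7, a fold of 87.7 at the floor and a ratio of 131.5 (36.2 to 1088). A second DCL2 match, Glyma.09G025300, had 5 hits in leaf, 434 in stage 6 and 611 in stage 7. SGS3 (Glyma.05G198500), which works with RDR6 to make double-stranded RNA, had 6.69 CPM in leaf, 55.7 CPM in stage 6 and 55.9 CPM in stage 7, a fold of 8.32 (7.01 to 9.94). AGO4 (Glyma.14G041100), the Argonaute of RNA-directed DNA methylation, had 7.44 CPM in leaf, 80.3 CPM in stage 6 and 56.5 CPM in stage 7, all antisense. The 4 genes above, all IDN2 matches with the same counts of 107 hits in leaf, 12 in stage 6 and 25 in stage 7, may be 1 source.

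**Figure D3:**
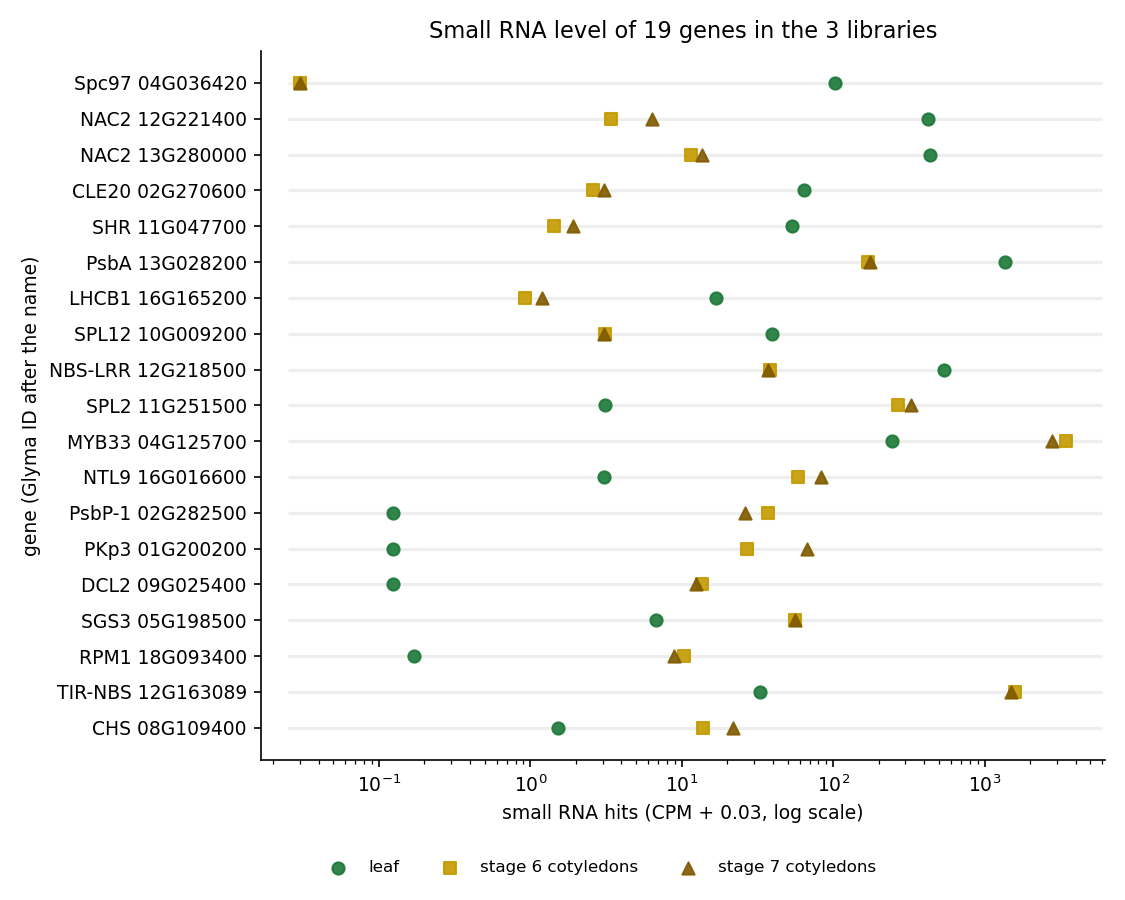
Small RNA level of 19 genes described in the text in leaf (circles), stage 6 (squares) and stage 7 (triangles) cotyledons, in CPM + 0.03 on a log axis. The first 9 genes lie above both cotyledon libraries in leaf and the other 10 below, while the cotyledon symbols lie close to each other.

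Chalcone synthase genes, the entry to flavonoid synthesis and the subject of the series, gave a list of 21 measured genes, of which 12 were below and 2 above, with a median of -3.18. The genes matched to the enzyme itself were below for 12 of 19 and above for 0, and the other 2 are KAS III genes, described last. The 21 genes form 11 groups of near-equal counts, of which 3 were below and 1 above. Glyma.08G109400 had 1.498 CPM in leaf, 13.9 CPM in stage 6 and 21.9 CPM in stage 7, a fold of 9.27 (6.46 to 13.7). The genes CHS7 and CHS8 had few hits: CHS7 (Glyma.01G228700) had 15 hits in leaf, 37 in stage 6 and 156 in stage 7, and CHS8 (Glyma.11G011500) had 13 hits in leaf, 36 in stage 6 and 155 in stage 7. On the CPM scale leaf lay under stage 6 by 1.81-fold (0.971 to 3.55) for CHS7 and by 2.03-fold (1.05 to 4.18) for CHS8, so neither was called.

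Not all chalcone synthase genes were low in leaf. Glyma.01G091400 had 44.3 CPM in leaf, 21.1 CPM in stage 6 and 34.3 CPM in stage 7, and Glyma.05G153200 had 40.6 CPM in leaf, 21.7 CPM in stage 6 and 35.2 CPM in stage 7, with 98.3% sense hits in leaf against 75.3% in stage 6 and 77.3% in stage 7. The 2 members above, matches to the fatty acid synthesis enzyme KAS III, carry the list's words without being chalcone synthases. One of them, Glyma.18G211400, had 60.6 CPM in leaf, 12.7 CPM in stage 6 and 14.8 CPM in stage 7, a fold of 4.10 (3.73 to 4.51), and neither passed without TMM factors.

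Phosphate and sulfate genes were above for 6 of 29 and below for 7, near the shares over all genes. PHO1 (Glyma.20G206900), which loads phosphate into the xylem, had 148 hits in leaf, 2 in stage 6 and 4 in stage 7, a fold of 67.2 at the floor and a ratio of 77.2 (29.5 to 287). The phosphoenolpyruvate translocator gene CUE1 (Glyma.06G181600) had 94.2 CPM in leaf, 12.6 CPM in stage 6 and 13.3 CPM in stage 7. SPX2 (Glyma.17G114700), of a family that senses phosphate, had 4 hits in leaf, 268 in stage 6 and 381 in stage 7. GPT1 (Glyma.14G025800), which brings glucose 6-phosphate into plastids, had 1.03 CPM in leaf, 59.2 CPM in stage 6 and 36.9 CPM in stage 7, a fold of 35.8 (23.6 to 57.3). Transporters were thus found on both sides.

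Laccase and copper protein genes, of which some are targets of miR397 and miR408 in Arabidopsis, were above for 4 of 17 and below for 2, and for 3 and 4 on RPM over all reads. LAC7 (Glyma.03G073776) had 34.97 CPM in leaf, 0.963 CPM in stage 6 and 1.68 CPM in stage 7, mainly sense. LAC17 (Glyma.08G359167), a lignin laccase, had 1 hit in leaf, 209 in stage 6 and 159 in stage 7, all antisense, a fold of 25.4 at the floor and a ratio of 76.2 (13.5 to 3027). Ribosomal protein genes were above for 15 of 76 and below for 12, and for 10 and 13 without TMM factors. Transposon-derived genes were below for 15 of 52 and above for 4, with a median of -1.73, and on RPM over all reads 36 were below. Among the latter FRS6 (Glyma.15G002100), a gene of the FAR1 family of light signalling, had 10 hits in leaf, 797 in stage 6 and 1077 in stage 7, a fold of 51.6 (27.9 to 108).

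Of the 12 largest folds below, 10 belonged to genes with sense hits in the cotyledons, but these genes are not all separate observations. Among the 12, Glyma.14G026700 and Glyma.02G288300 had the same cotyledon counts. Glyma.19G180400, Glyma.12G144100 and Glyma.08G173800 had near-equal cotyledon counts. Sense hits did not prevail over all genes below. By the strand rule given further on, 559 of 1576 (35.5%) were sense in stage 6 and 594 (37.7%) antisense. An integrin-linked kinase gene, Glyma.14G026700, had 0 hits in leaf, 3557 in stage 6 and 3228 in stage 7, at least 515-fold lower, and its paralog Glyma.02G288300 had 1 hit in leaf and the same cotyledon counts. A pectin methylesterase inhibitor gene (Glyma.02G016500) had 2 hits in leaf, 1407 in stage 6 and 1783 in stage 7, a fold of 285 at the floor and a ratio of 427 (118 to 3529). PKp3 (Glyma.01G200200), a plastid pyruvate kinase, had 2 hits in leaf, 784 in stage 6 and 2983 in stage 7, a fold of 192 at the floor and a ratio of 288 (79.4 to 2381). NIG (Glyma.09G188300), a GTPase that interacts with a viral nuclear shuttle protein, had 5 hits in leaf, 1742 in stage 6 and 1649 in stage 7.

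A further set below in leaf differed between the cotyledon stages too. IDD4 (Glyma.19G180400) had 3 hits in leaf, 635 in stage 6 and 5473 in stage 7, which is 0.140 CPM in leaf, 21.8 CPM in stage 6 and 123 CPM in stage 7. Counts within 10% of these were found in 10 genes with unrelated descriptions, among them an S-locus lectin kinase, a ribosomal protein L30 gene and an AP2/ERF gene, at 0 to 3 hits in leaf, 599 to 635 in stage 6 and 5005 to 5473 in stage 7. Their hits were sense in 8 and antisense in 2. How many separate small RNAs stand behind these counts cannot be told from the table.

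The genes with the most hits in leaf had no description and were not called. Glyma.13G012400 had 5399360 hits in leaf, 3713709 in stage 6 and 3740641 in stage 7, nearly all antisense, and leaf was 1.98-fold above the nearer cotyledon library. Glyma.13G024100 had 3198440 hits in leaf, 3050891 in stage 6 and 2654680 in stage 7, a fold of 1.43. Among the 10 genes with the most leaf hits the largest fold was 3.18, for Glyma.13G011900, with 504586 hits in leaf, 190980 in stage 6 and 331158 in stage 7. On the lower side, 10 genes with no description had near-equal counts of 60967 to 62259 hits in leaf, 648189 to 660354 in stage 6 and 861967 to 878636 in stage 7. For their leading member, Glyma.20G205351, leaf was 6.81-fold (6.75 to 6.86) below.

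Genes above in leaf carried hits on 1 strand more often than genes below. A gene is counted as sense with at least 90% sense hits in a library and as antisense with at most 10%. Of the 1528 genes above, 726 were sense in leaf, 694 antisense and 108 (7.07%) had both strands, against 22.2% with both strands over all measured genes with a leaf hit. In stage 6, 288 of the 1425 genes above that had a hit there carried both strands (20.2%). Of the genes below, 517 of 1460 with a leaf hit carried both strands in leaf (35.4%), and 423 of 1576 in stage 6 (26.8%). Genes above in leaf had more hits in leaf than in cotyledons, and shares from few hits are less exact.

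The strand of the hits also differed between leaf and cotyledons. Among 2726 genes with at least 50 hits in each library, the sense share in leaf was at least 30 points above both cotyledon libraries for 94 (3.45%) and at least 30 points below both for 87 (3.19%). The cotyledon libraries were that far apart for 6 genes (0.22%). Of the 181 shifted genes 40 were also past the 4-fold rule. The share past that rule among all 2726 genes is not given here. The minimum of 50 hits leaves out genes with few hits in any library. These 40 genes therefore do not show how often strand and level differ together.

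ABCB4 (Glyma.17G041300), an auxin transporter gene, had 3.17% sense hits in leaf, 99.4% in stage 6 and 99.4% in stage 7, at 8.85 CPM in leaf, 11.7 CPM in stage 6 and 16.1 CPM in stage 7. CSLD4 (Glyma.02G286100), a cellulose synthase-like gene of tip growth, had 17.3% sense hits in leaf and 100% in both cotyledon libraries. WRKY11 (Glyma.14G135400), a transcription factor of defence, had 1.69% sense hits in leaf, 87.1% in stage 6 and 81.3% in stage 7. In these the hits were mostly antisense in leaf and mostly sense in the cotyledons. The nitrate reductase gene NIA1 (Glyma.13G084000) had 13.5% sense in leaf, 92.0% in stage 6 and 95.7% in stage 7.

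The reverse was seen at a KIP1-like kinase-interacting gene (Glyma.02G236600), with 99.5% sense hits in leaf, 9.73% in stage 6 and 5.799% in stage 7. RBOHB (Glyma.10G152200), an NADPH oxidase gene, had 98.7% sense in leaf, 10.8% in stage 6 and 13.5% in stage 7, from 75 hits in leaf, 83 in stage 6 and 96 in stage 7. SMT2 (Glyma.06G020700), a sterol methyltransferase gene, had 88.7% sense in leaf and 0% in both cotyledon libraries, from 53 hits in leaf, 63 in stage 6 and 51 in stage 7. The TIR-NBS-LRR gene Glyma.15G232700 was shifted and below at once, with 90.1% sense of 191 hits in leaf, 5.57% of 1472 in stage 6 and 6.32% of 2530 in stage 7. For each of these genes the 95% counting interval in leaf was clear of both cotyledon intervals. The genes were named for their large difference in sense share, so clear intervals follow from that choice and are no separate support. For SMT2 the interval ran from 77.0 to 95.7% in leaf and reached at most 6.98% in the cotyledons.

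**Figure D4:**
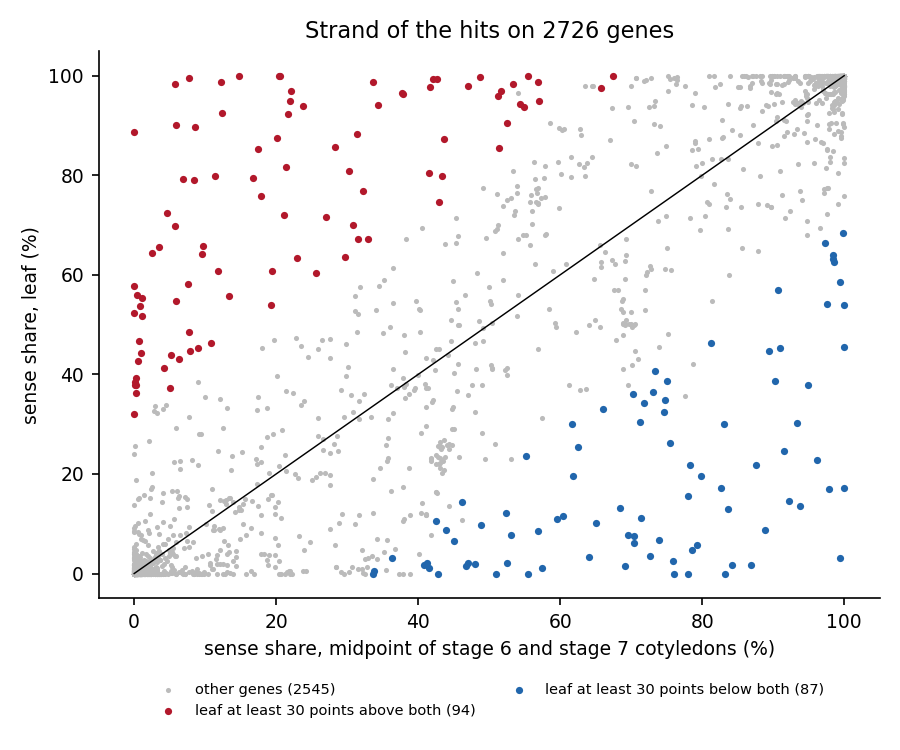
Sense share of hits in leaf against the midpoint of stage 6 and stage 7 cotyledons for 2726 genes with at least 50 hits in each library. Red genes (94) lie at least 30 points above and blue genes (87) at least 30 points below both cotyledon libraries; the line marks equality.

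The levels of the called genes in other libraries of the series, which did not enter the rule, are given on a scale of TMM factors over all 36 libraries. Genes above in leaf had a median of 11.1 CPM in leaf and 0.836 CPM in stage 6 and 0.951 CPM in stage 7. Their median was 1.70 to 2.12 CPM in 3 libraries of vegetative buds, 1.39 to 1.92 CPM in 4 of adult shoot tips and 1.31 to 1.46 CPM in 2 of shoot tips from plants of 1 month. It was 0.697 CPM in dry cotyledon and 0.658 CPM in immature cotyledon. On the same scale the median over all measured genes was 5.45 CPM in leaf, 2.68 to 2.95 CPM in buds, 2.98 to 3.53 CPM in adult tips and 4.60 to 4.93 CPM in tips of 1 month. Past the midpoint of the leaf and cotyledon levels on the log scale lay 21.5 to 29.4% of them in buds, 16.8 to 28.0% in adult tips, 8.84 to 11.98% in tips of 1 month and 8.12 to 22.3% in immature seed coats. Among the earlier seedling cotyledons the share was 1.44 to 12.6%, the highest in stage 5; the stage 2 library, with hits on 1122 genes, was left out.

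For the genes below in leaf the median was 1.02 CPM in leaf and 10.9 CPM in stage 6 and 10.5 CPM in stage 7, with 1.61 to 1.87 CPM in buds, 2.05 to 2.40 CPM in adult tips and 4.98 to 7.72 CPM in tips of 1 month. It was 9.02 CPM in immature cotyledon, 6.73 CPM in dry cotyledon, 4.29 to 5.08 CPM in immature embryo axes and 1.87 to 3.97 CPM in immature seed coats. On the leaf side of the midpoint lay 72.8 to 75.4% of these genes in buds, 70.4 to 74.3% in adult tips and 49.6 to 66.8% in immature seed coats, against 32.7 to 43.4% in tips of 1 month, 33.3% in immature cotyledon and 8.25 to 23.9% in the earlier seedling cotyledons. On this scale the median over all measured genes was 5.45 CPM in leaf, 2.68 to 2.95 in buds and 2.98 to 3.53 in adult tips. The midpoint makes no allowance for this, so the shares past it depend on the scale, for genes above and below alike. No such share is given for all measured genes. Bud and tip libraries come from cultivar Clark, so cultivar and tissue cannot be told apart there.

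Single genes differed in this respect. The SPL gene Glyma.19G094000 had 5.72 CPM in leaf, 419 CPM in stage 6 and 512 CPM in stage 7, 3123 CPM in immature cotyledon, 4.19 to 6.73 CPM in adult tips and 1.07 to 1.22 CPM in buds. Over the 33 measured SPL genes hits summed to 320 CPM in leaf, 10712 CPM in stage 6 and 13051 CPM in stage 7, 81922 CPM in immature cotyledon and at most 136 CPM in buds. The sum was 209.6 to 444 CPM in shoot tips, and it was below the green cotyledons in immature embryo axes too, at 866 to 1420 CPM, and in immature seed coats, at 537 to 7372 CPM. In dry cotyledon, at 35755 CPM, and in dry seed coat, at 30707 CPM, the sum was above the green cotyledons. The Spc97/Spc98 gene Glyma.04G036420, in contrast, had 204 CPM in leaf, 0 to 0.808 CPM in tips of 1 month and 0 in adult tips, buds and every cotyledon and embryo axis library. The NAC2 match Glyma.12G221400 had 829 CPM in leaf, 40.7 to 65.6 CPM in tips of 1 month and up to 206 CPM in the earlier seedling cotyledons, but 3.97 to 6.57 CPM in adult tips.

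**Figure D5:**
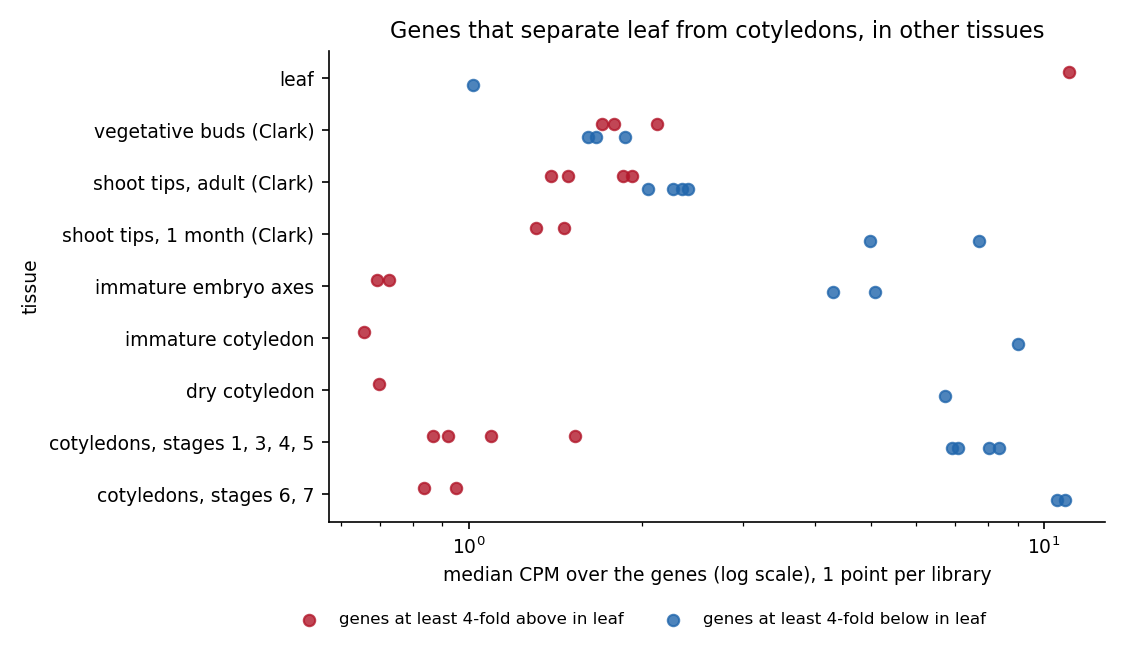
Median CPM over the 1528 genes above (red) and the 1576 genes below (blue) in leaf, in each library of 9 tissues, on the scale of all 36 libraries and a log axis; each point is 1 library. The blue points lie at 1.61 to 1.87 CPM in buds and 2.05 to 2.40 CPM in adult tips, against 1.02 CPM in leaf. The red points lie at 1.70 to 2.12 CPM in buds and 1.39 to 1.92 CPM in adult tips, against 11.1 CPM in leaf. Medians over all measured genes were 5.45 CPM in leaf, 2.68 to 2.95 in buds and 2.98 to 3.53 in adult tips.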

How the data were processed

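Small RNA of total RNA was measured in 36 libraries, of which 3 enter the comparison. Per the file headers, the values on which everything here rests are raw counts of hits, total and unique, on either strand of a transcript model. The deposited CHS table holds RPM, which the authors computed over all reads of a library, and it gave the reads used for the RPM alternative. The aligner was Bowtie 1, according to the submitters' processing notes. Mismatches and read lengths were not given in the sources used here.

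Computed here were CPM of summed total hits with TMM factors (edgeR 4.0.16 in R 4.3.3), folds to the nearer cotyledon library with a floor of 3 hits, sense shares, and 95% Clopper-Pearson intervals, in Python 3.11.15 (numpy 2.4.6, pandas 2.3.3, scipy 1.17.1, matplotlib 3.10.9). Genes under 1 CPM were left out. As alternatives, the edgeR quasi-likelihood test (filterByExpr, minimum count 10, minimum total 15, 1 residual degree of freedom) and the DESeq2 1.42.0 Wald test were fitted, with Benjamini-Hochberg adjustment. The edgeR test and the fold rule at a 2-fold limit were tried on simulated data, and the DESeq2 test was not. With 1 leaf library the edgeR and DESeq2 tests assume that leaf varies like the cotyledon stages.

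Depths were 23.2 M (1000000) reads in leaf, 21.7 M in stage 6 and 34.8 M in stage 7, and intervals cover counting error only. Genes were named by rule, 1 per group of near-equal counts (within 5%): the 12 largest folds each way at 5 CPM or more, the 10 with the most leaf hits, the 6 largest differences in sense share each way, the 2 largest folds each way of each list, and CHS7 and CHS8. Subfamilies, the counts within 10% and the further genes named were chosen after values were seen. The members, lists and rules were all chosen with earlier results of these data known. Arabidopsis names are best matches in the deposited table.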

Additional observations from a re-analysis of the deposited data

How the results depend on the processing

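Without a filter 2934 genes were above and 2393 below; at 5 CPM 551 were above and 664 below. A 2-fold limit gave 2481 and 2490, and an 8-fold limit 831 and 975. With stages 4 to 7 as the cotyledon range 1037 genes were below and 1229 above. edgeR called 4015 higher and 4246 lower, with 9267 genes at an unadjusted p under 0.05, and DESeq2 2286 and 2241. With a minimum of 200 hits, 30 genes differed in sense share. Leaving out 1 cotyledon library gave 1690 to 1765 above and 1665 to 1759 below. Sense hits alone gave 1690 and 1394, antisense hits alone 1070 and 1170, unique hits 1608 and 1623, and DESeq2 size factors 1641 and 1507. No direction turned round for a named gene under the scalings, unique hits or a left-out cotyledon library. The fold moved past its counting interval for 83 named genes on RPM over all reads (31 did not), 68 without TMM factors, 9 with DESeq2 size factors, 5 with unique hits, 58 without stage 6 and 55 without stage 7. No paired analysis was possible because 1 leaf library shares no replicate number with 2 cotyledon libraries of different stages. Depth limits genes under 3 hits, for which a fold is a bound.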
